A study of Homo sapiens with 4 samples.

Results

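Cassette exons that come in a long and a short version were examined, that is, exons that share 1 splice site with another cassette exon of the same gene and differ from it at the other end. They were found from coordinates alone: of 27483 unique cassette exons in the authors' deposited table, 4903 exons in 1844 genes shared exactly 1 boundary with another unique cassette exon of their gene. The rule uses no measured value, although it was written with earlier results of these data known. The libraries were made from total RNA of HEK293T, a human embryonic kidney cell line, and were intended to find exons whose inclusion differs when RBFOX2 is missing. The labels give 4 clones, 2 of genotype WT and 2 of genotype RBFOX2 KO, and the same treatment text for all of them: transfection with PX459, a Cas9 plasmid, and with pgRGFP carrying guides on either side of RBFOX2, then sorting of single cells and genotyping by PCR. Each library is thus 1 clone. Nothing labels the clones as separate cultures beyond that. The p-values compare 2 sets of 2 libraries and rest on these 4 clones alone.

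The table compares 2 sets of 2 libraries each, numbered in its header, and neither the header nor the labels say which set is WT. An inclusion level estimates, from junction reads, the share of transcripts that keep the exon rather than skip it. Each difference below is the mean inclusion level in set 1 less the mean in set 2. It runs from -1 to 1 and has no genotype attached; a positive value means higher in the first set. The counts and levels per library stand in columns named by set number only and were not used, so the inclusion of each version in each library, its depth and the spread between clones are not given here. The targeted gene could not serve as a check of the labels, because RBFOX2 had 0 events in the table.

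Splicing removes introns between a donor, the 5′ splice site at the end of an exon, and an acceptor, the 3′ splice site at the start of the next. Most introns begin with GT and end with AG. Where a second usable site lies close by, an exon can be joined at either of them, and the segment between the sites is kept in the long version and lost from the short one. Tandem acceptors of the form NAGNAG are the best-known case and add or remove a single codon. RBFOX2 binds GCATG elements near alternative exons and raises or lowers their inclusion depending on the side on which it binds. Skipping of the whole exon and choice between its ends are separate decisions, and the table measures the former for each version.

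The segments between the ends are shown first, for coding exons, since their letters mark the sites being chosen. Each line gives the long version 5′ to 3′ with the segment that the short version lacks in capitals. The letters were read from GENCODE 29 transcripts matched by structure, and the positions are those of the authors' deposited table, on hg19 per the submitters' processing notes. For alternative acceptors the segment opens the exon and ends in AG, the acceptor of the short version.
SRSF10, chr1:24298063-24298116, minus strand: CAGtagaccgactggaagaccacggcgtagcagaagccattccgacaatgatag
UAP1, chr1:162562522-162562572, plus strand: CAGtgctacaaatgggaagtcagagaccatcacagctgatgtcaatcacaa
ADAM15, chr1:155033891-155033965, plus strand: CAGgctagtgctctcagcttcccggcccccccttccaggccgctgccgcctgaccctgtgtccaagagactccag
TAF1C, chr16:84213552-84213689, minus strand: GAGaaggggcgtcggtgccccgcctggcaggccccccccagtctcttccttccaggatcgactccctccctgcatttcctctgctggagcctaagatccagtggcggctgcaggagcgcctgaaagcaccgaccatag
MPPE1, chr18:11886712-11886780, minus strand: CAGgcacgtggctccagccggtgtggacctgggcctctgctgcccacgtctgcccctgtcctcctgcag
PTBP1, chr19:805492-805569, plus strand: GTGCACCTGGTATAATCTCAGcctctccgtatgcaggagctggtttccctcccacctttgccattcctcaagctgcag

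For alternative donors the segment closes the exon and begins with GT, the donor of the short version.
AFMID, chr17:76201684-76201834, plus strand: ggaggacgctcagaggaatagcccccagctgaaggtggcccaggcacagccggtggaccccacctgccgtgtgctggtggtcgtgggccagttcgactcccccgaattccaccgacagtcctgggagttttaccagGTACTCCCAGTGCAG
ADAM22, chr7:87808250-87808444, plus strand: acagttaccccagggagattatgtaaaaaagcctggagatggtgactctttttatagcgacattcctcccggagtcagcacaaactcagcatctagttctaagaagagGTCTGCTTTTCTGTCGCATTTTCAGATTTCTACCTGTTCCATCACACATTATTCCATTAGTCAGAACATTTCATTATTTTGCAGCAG

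Across all pairs the letters followed the same form. A long version was matched to a GENCODE transcript in 2615 of the pairs with the same flanking exons. Among alternative acceptors at least 2 nt apart, the segment ended in AG in 1699 of 1703 pairs (99.8%). Among alternative donors it began with GT in 847 of 910 pairs (93.1%) and with GC in a further 56 (6.15%).

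The 4903 exons formed 2202 groups linked by shared boundaries, of which 1833 held 2 exons. The largest, in GALT, an enzyme of galactose metabolism, held 11 exons from 27 to 631 nt, and 0 of them passed. In all there were 3007 pairs with 1 shared boundary. A long and a short version can be compared most directly when their events have the same upstream exon end and the same downstream exon start, because both are then set against the same skipping junction. That held for 2798 pairs, with 4701 exons in 1807 genes. By construction such a pair also has the junction at its common boundary in both values, so the values of a pair share reads and are not independent.

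Alternative acceptors were more frequent than alternative donors. They made up 1831 of the 2798 pairs, and donors made up 967. The median distance between the ends was 44 nt for acceptors and 63 nt for donors. The long version had a median length of 167 nt and the short version of 102 nt.

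The distances were far from evenly spread. At the acceptor, 166 pairs lay 3 nt apart, 9.07% of all acceptor pairs, followed by 56 pairs at 4 nt and 42 pairs at 5 nt. At the donor, 4 pairs lay 3 nt apart, 44 lay 4 nt apart and 17 lay 5 nt apart. Of the 155 acceptor pairs 3 nt apart with a sequence, the segment was CAG in 104, AAG in 24, TAG in 23 and GAG in 3, so that 1 pair, with CAA, lacked the AG. Of the 40 donor pairs 4 nt apart with a sequence, the segment was GTAG in 8, GTGA in 7 and GCAG in 7.

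**Figure D1:**
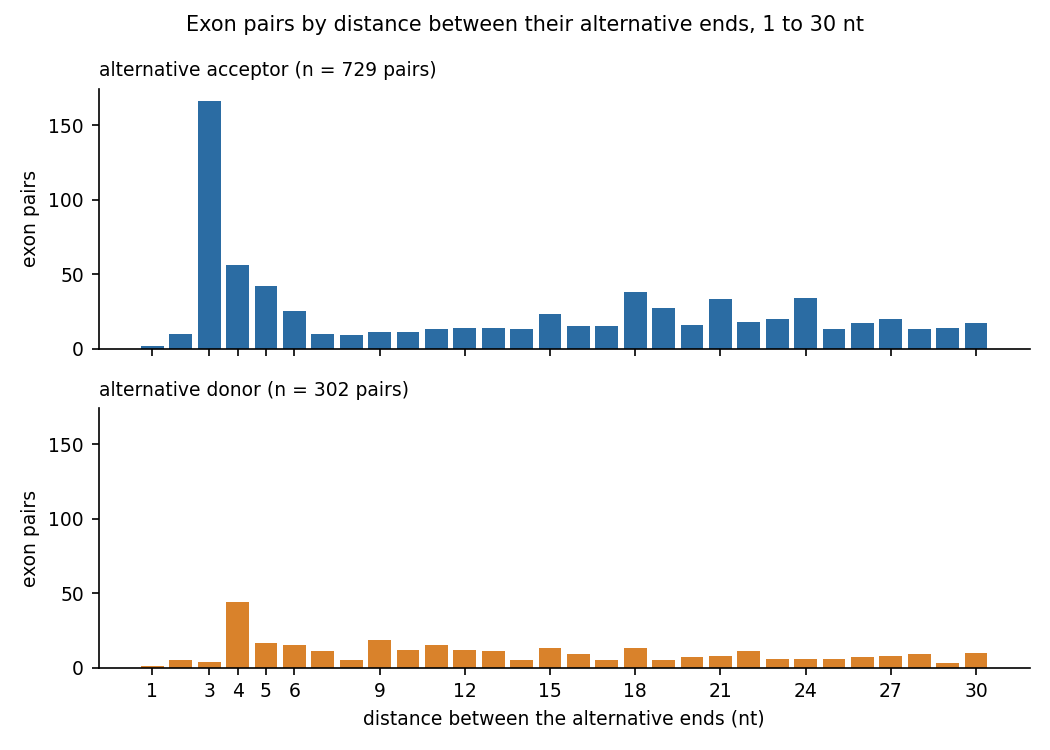
Number of exon pairs (vertical axis) by the distance in nt between their alternative ends (horizontal axis), for alternative acceptors (upper) and alternative donors (lower), over pairs with the same flanking exons that lie 1 to 30 nt apart. The acceptor bars peak at 3 nt with 166 pairs and the donor bars at 4 nt with 44 pairs.

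Coding status went with the distance. An exon was counted as fully coding when it lay wholly within the coding sequence in at least 1 matched GENCODE transcript. Both versions were matched in 2486 pairs, and in all 2486 the short sequence lay at the expected end of the long one. Both were fully coding in 611 pairs, and there the distance was divisible by 3 in 505 (82.7%), 88.1% of 421 acceptor pairs and 70.5% of 190 donor pairs. Where the long version alone was fully coding the share was 13.3% of 360 pairs, and where the short version alone was fully coding it was 25.3% of 620. In the 895 pairs with neither fully coding it was 35.2%. Annotation of an exon as coding itself depends on the reading frame, so these shares describe the annotation and not a measurement of RNA.

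Inclusion was then compared between the sets of libraries. An exon passed when any of its events had a deposited FDR below 0.05 together with a difference of 0.1 or more in either direction. Of the 4903 exons, 351 passed, or 7.16%, against 5.73% of all 27483 exons in the authors' deposited table and 5.42% of the 22580 exons without an alternative end. In the first set 208 of them were higher (4.24%, background 3.08%), and in the second set 143 (2.92%, background 2.65%). Counted by event, 363 of the 5708 events of these exons passed, 6.36% against 5.15% of all 31408 events. Exons with alternative ends were also listed in more than 1 event more often (13% against 11.5% of the other exons) and had a p-value of 1 in every event less often (44.9% against 50.4%). The difference in passing share was not tested, and the part that listing or coverage has in it was not tested either.

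The long and the short version passed at similar rates. Of exons that were the long version in every pair, 6.98% of 2236 passed, and of those that were the short version in every pair, 7.59% of 2372. Of the 295 exons that were long in 1 pair and short in another, 5.08% passed.

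Where both versions of an exon passed, they moved in the same direction. In the 2798 pairs with the same flanking exons, at least 1 version passed in 244 (8.72%). Both passed in 95 pairs of 82 genes, with the first set higher in 59 and the second in 36. The authors' rMATS test gave 0 pairs in which both passed in opposite directions. Without the requirement of the same flanks, taking each exon by its lowest p-value, there were 3 such pairs, in IFI27L1, C17orf49 and PAM. For PAM, which makes amidated peptides, the authors' deposited table gave 0.208 for the 204-nt version and -0.166 for the version 3 nt shorter, under different flanks. At an unadjusted p-value under 0.05 for both versions in the authors' deposited table, 292 pairs with the same flanks had the same sign and 2 had opposite signs. The versions of such a pair share junction reads by construction, so these counts of agreement do not come from independent values. The long version alone passed in 70 pairs and the short version alone in 79.

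The sizes were also close. In the 95 pairs the median absolute difference was 0.283 for the long and 0.3 for the short version, with a median gap between them of 0.056. The larger value belonged to the short version in 52 pairs and to the long in 39, and 4 were equal. Across all 2798 pairs Pearson's r between the deposited differences was 0.776 and Spearman's rho 0.876, as a description of values that share junction reads. Among the 2713 pairs in which neither value was 0, the signs matched in 2531 (93.3%). The authors' deposited table gave 225 pairs the same difference and the same p-value for both versions. The p-value was under 1 in 53 of these, and in all 53 both exons were at least 94 nt long, so that both had the same effective length.

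**Figure D2:**
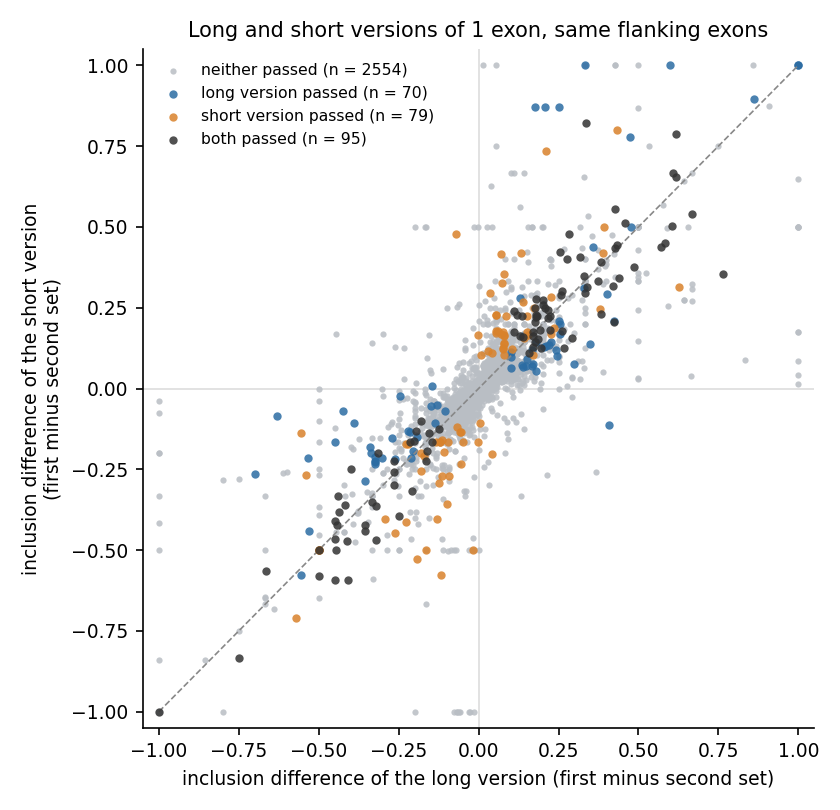
Each point is 1 exon pair with the same flanking exons, with the deposited inclusion difference (first minus second set of libraries) of the long version on the horizontal axis and of the short version on the vertical axis. The dashed line marks equal values, and the 95 pairs in which both versions passed all lie at the lower left or the upper right of the 0 lines.

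The same agreement was seen between exons that share the skipping junction but no boundary. Among pairs of passing exons of 1 gene that did not overlap but had the same flanking exons, 76 had the same direction and 1 had opposite directions. Among pairs of passing exons of 1 gene that neither overlapped nor shared a flanking junction, 91 had the same direction and 81 the opposite (52.9% the same), over 116 genes. These comparisons were added after the values were seen, and what the shared skipping reads contribute was not tested.

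**Figure D3:**
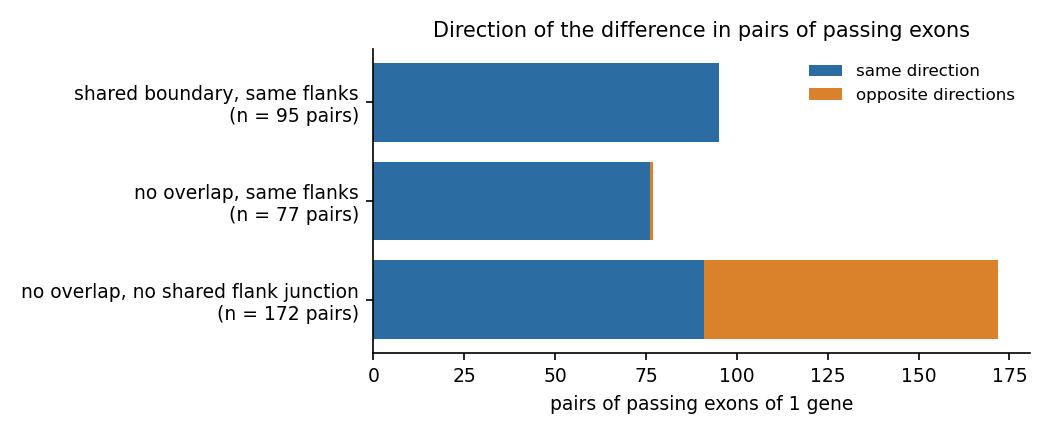
Number of pairs of passing exons of 1 gene (horizontal axis) with the same or opposite direction of the inclusion difference, by what the exons of a pair share. Opposite directions make up 0 of 95 pairs with a shared boundary and the same flanks, 1 of 77 with the same flanks only, and 81 of 172 with neither.

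The pairs with the lowest p-values for both versions covered several gene functions. ERBB2IP (chr5:65370852-65371058, plus strand), now ERBIN, encodes a scaffold protein of the basolateral membrane. The authors' deposited table gave 0.283 for its 207-nt and 0.478 for its 129-nt version, which starts 78 nt further in, each with an FDR listed as 0. The 207-nt exon also begins where a second short exon begins, and it keeps the 33 nt between the 2 short ones. The 129-nt version matched no GENCODE transcript. YWHAB (chr20:43516186-43516383, plus strand) encodes a 14-3-3 protein, and its 198-nt and 95-nt versions had -0.146 and -0.165 in the authors' deposited table, both again at the lowest FDR, 0. Neither YWHAB version was fully coding. In U2AF1L4 (chr19:36235527-36235639, minus strand), a relative of the U2AF subunit that recognises acceptors, the authors' deposited table gave 0.382 (FDR 1.45e-11) for the 113-nt and 0.392 (FDR 2.04e-11) for the 67-nt version, with acceptors 46 nt apart. The versions of U2AF1L4 matched no transcript in which they were fully coding.

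PREPL (chr2:44586636-44587177, minus strand) encodes a prolyl endopeptidase-like protein. Its 542-nt version had -0.441 (FDR listed as 0) and its 254-nt version -0.332 (FDR 3.02e-11) in the authors' deposited table. With other flanks the 542-nt PREPL exon had 0.342 and did not pass. The 254-nt PREPL exon passed in 2 of its 3 events, and its values ran from -0.353 to 0.355. Whether its 2 passing events had the same direction is not given here. PCBP1-AS1, an antisense RNA gene, had 0.433 and 0.444 (both FDR 0) for its 181-nt and 150-nt versions in the authors' deposited table. Each PCBP1-AS1 version was listed in 4 events, of which 2 passed, with values down to -0.111. Whether the authors' counting used strand is not given in the sources used here, so reads of PCBP1-AS1 and of its sense partner may not be separated.

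Groups of more than 2 exons hold part of the pairs counted above, so their directions are not a separate result. Among 369 groups of 3 or more, 48 had a passing exon, 18 had at least 2 and 9 had at least 3, and 0 had passing exons in both directions. A group counts several exons at once, so these counts cannot be set beside the 7.16% of single exons with alternative ends or the 5.73% of all exons. TAF1A, a subunit of the RNA polymerase I factor SL1, had 3 versions, and the authors' deposited table listed -0.592 for 67 nt, -0.409 for 114 nt and -0.45 for 132 nt. LEPREL2, now P3H3, a prolyl hydroxylase gene, had 3 acceptors at steps of 2 nt, with -0.423 at 64 nt, -0.442 at 66 nt and -0.356 at 68 nt in the authors' deposited table. In MPV17, a gene of the inner mitochondrial membrane, the versions of 81, 116 and 161 nt were listed at 0.226, 0.182 and 0.222 in the authors' deposited table. With other flanks the 116-nt MPV17 exon had -0.057 and did not pass.

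Some long versions spanned a pair of short ones. In 151 cases a long exon ended at the same places as 2 shorter exons, 1 at each end, that did not overlap, so the long exon keeps the sequence between them. The long exon passed in 7 of these, any exon in 25, and the long with at least 2 short ones in 3, CAPRIN2 and FASTK among them. Over all cassette exons 5.73% passed, and over exons that were the long version in every pair 6.98%. Both are shares of single exons. They can be set beside the 7, but not beside the 25 or the 3, which count several exons at once. In CAPRIN2, an RNA-binding protein gene, the authors' deposited table gave 0.617 for the 1837-nt exon, 0.788 for the 147-nt exon at its one end and 0.655 for the 105-nt exon at the other. FASTK had 0.201 at 324 nt, 0.275 at 115 nt and 0.257 at 136 nt in the authors' deposited table. All 6 of these values were higher in the first set. In other events, which did not pass, the 147-nt CAPRIN2 exon had 0.25, the 115-nt FASTK exon 0.04 and the 136-nt FASTK exon 0.065.

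Pairs in which 1 version passed mostly had the same sign in both versions. Signs matched in 143 of the 149. The median absolute gap was 0.091, and the gap was under 0.1 in 81 pairs (54.4%). Where the long version passed, its median absolute difference was 0.253 and that of the short version 0.164. Where the short version passed, the medians were 0.202 for the short and 0.114 for the long. The pass rule itself sorts for a larger value in the passing version, so these medians do not show that the versions differ. A pass in 1 version and not in the other was not tested as a difference between them.

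The widest gaps at the acceptor included values with no statistical weight. In DNAJC4, a J-domain protein gene, the 185-nt version was listed at 0.333 (FDR 0.000433) and the 105-nt version at 1, FDR also 1, in the authors' deposited table. SAAL1 had 0.176 (FDR 0.0131) at 197 nt and 0.871 (FDR 1) at 12 nt in the authors' deposited table. DPAGT1 (chr11:118968565-118968753, minus strand), the enzyme of the first step of N-glycan precursor synthesis, went the other way: the authors' deposited table gave 0.21 (FDR 0.747) for the 189-nt version and 0.734 (FDR 0.00309) for the 71-nt version. The long DPAGT1 version matched coding transcripts as well as others annotated for nonsense-mediated decay or a retained intron, and the short one matched nonsense-mediated decay alone. The other event of the 71-nt DPAGT1 exon had -0.055 and did not pass.

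At the donor, ADAM22, a receptor for LGI proteins without protease activity, had -0.425 (FDR 0.0069) for the 195-nt version and -0.071 (FDR 1) for the 108-nt version in the authors' deposited table. The 87-nt segment of ADAM22 is printed above. AFMID, kynurenine formamidase, had donors 15 nt apart, with -0.137 (FDR 0.0199) for the 136-nt and -0.555 (FDR 1) for the 151-nt version in the authors' deposited table. MSH5-SAPCD1, a read-through gene that overlaps MSH5 and is therefore uncertain, had -0.5 (FDR 0.00216) at 48 nt and -0.166 (FDR 1) at 138 nt in the authors' deposited table.

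In 6 pairs with a passing version the other version had the opposite sign, and in each the other value did not pass. They were picked out with their values in view. ATG13, of the complex that starts autophagy, had 0.479 (FDR 0.00142) for the 51-nt and -0.07 (FDR 1) for the 116-nt version in the authors' deposited table, and another event of its 116-nt exon had 0.25. BLOC1S6, a subunit of a complex for lysosome-related organelles, had 0.408 (FDR 8.91e-05) at 117 nt and -0.114 (FDR 1) at 12 nt in the authors' deposited table. MYL6, a myosin light chain, had 0.165 (FDR 0.000717) for the 36-nt coding version and -0.002 (FDR 1) for the 125-nt version in the authors' deposited table. IP6K2, an inositol hexakisphosphate kinase, had -0.202 (FDR 0.000693) at 123 nt and 0.041 (FDR 1) at 131 nt in the authors' deposited table. COASY, of coenzyme A synthesis, had -0.106 (FDR 0.00778) at 132 nt and 0.004 (FDR 0.283) at 192 nt in the authors' deposited table. CHCHD7 had -0.146 (FDR 0.0271) at 148 nt and 0.007 (FDR 1) at 128 nt in the authors' deposited table. The exons of BLOC1S6, MYL6, COASY, IP6K2 and CHCHD7 were listed in 1 event each.

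**Figure D4:**
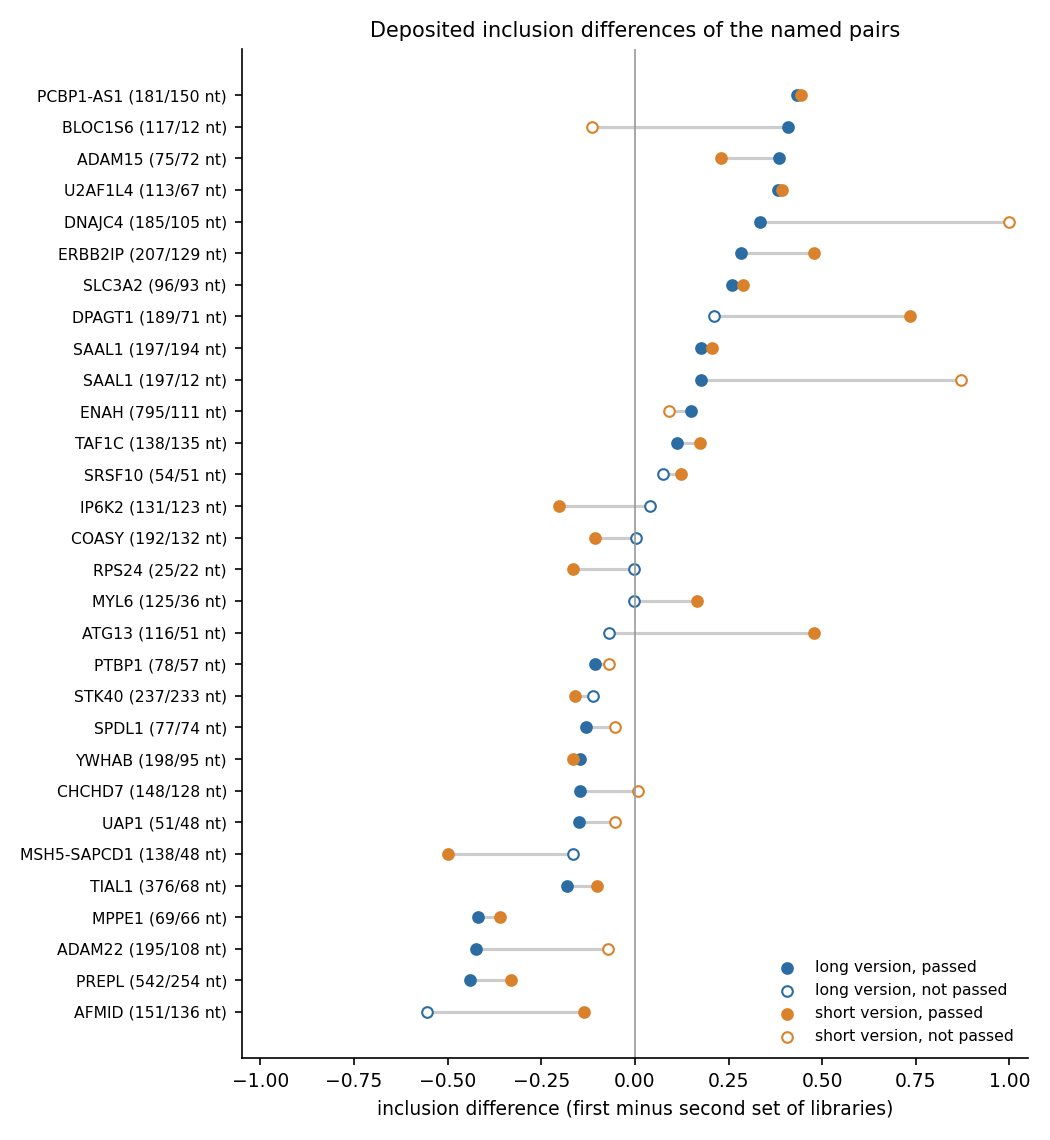
Deposited inclusion differences (first minus second set of libraries) of the long version (blue) and the short version (orange) of each named pair, with the lengths of both in nt; filled points passed and open points did not. Where both points are filled they lie on the same side of 0, and the widest lines end in an open point in DNAJC4, SAAL1 and ATG13.

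Acceptors 3 nt apart passed about as often as acceptors as a whole. At least 1 version passed in 18 of the 166 pairs (10.8%), against 9.28% of all 1831 acceptor pairs, and both in 5. By letters, a version passed in 10 of 104 pairs with CAG, 3 of 24 with AAG, 3 of 23 with TAG and 1 of 3 with GAG. The median absolute gap between the versions was 0.018, and the absolute value was larger for the short version in 96 pairs and for the long in 59. Donors 4 nt apart passed in 1 of 44 pairs (2.27%), against 7.65% of all 967 donor pairs, and donors 5 nt apart in 0 of 17. With counts this low the shares by distance were not compared further.

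The 5 pairs 3 nt apart in which both versions passed were picked out with their values in view. Of 4 of them the segment is given here, CAG in ADAM15 and MPPE1, TAG in SAAL1 and GAG in TAF1C, and all 5 pairs are fully coding in both versions. ADAM15, a membrane-bound metalloprotease whose cytoplasmic tail is alternatively spliced, had 0.384 for the 75-nt and 0.23 for the 72-nt version in the authors' deposited table. The second FDR of ADAM15, 0.0489, lay just under the limit. Each ADAM15 version was listed in 2 events. The 75-nt version passed in both (0.271 and 0.384), and the 72-nt version passed in 1 of them (values 0.19 and 0.23). SLC3A2, the heavy chain of several amino acid transporters, had 0.258 at 96 nt and 0.288 at 93 nt in the authors' deposited table. MPPE1, of GPI anchor maturation, had -0.419 at 69 nt and -0.359 at 66 nt in the authors' deposited table. TAF1C, another SL1 subunit, had 0.112 at 138 nt and 0.175 at 135 nt, and SAAL1 had 0.176 at 197 nt and 0.207 at 194 nt, in the authors' deposited table.

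The lowest p-values 3 nt apart came from pairs in which 1 version passed. RPS24 (chr10:79799959-79799983, plus strand) encodes a protein of the small ribosomal subunit and has very short exons near its end. In the authors' deposited table its 22-nt version had -0.164 (FDR listed as 0), while the 25-nt version had -0.002 (FDR 1). SRSF10, an SR protein, had 0.122 (FDR 1.2e-11) for the 51-nt and 0.076 (FDR 5.86e-08) for the 54-nt version in the authors' deposited table. SRSF10 thus missed a double pass on the size of the difference and not on its FDR. UAP1, which makes UDP-N-acetylglucosamine, had -0.149 (FDR 6.78e-10) for the 51-nt version and -0.054 (FDR 0.709) for the 48-nt version in the authors' deposited table. In SPDL1, an adaptor of dynein at the kinetochore, the 77-nt version had -0.13 (FDR 8.92e-10) and the 74-nt version -0.052 (FDR 0.0165) in the authors' deposited table. The only 4-nt donor pair with a pass was STK40, with -0.16 (FDR 0.0409) at 233 nt and -0.113 (FDR 0.579) at 237 nt in the authors' deposited table.

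The version that is not coding had the larger difference more often. Where the long version alone was fully coding, the absolute difference was larger for the short version in 303 of 360 pairs and for the long in 39, with medians of 0.075 and 0.041. Where the short version alone was fully coding, it was larger for the long version in 445 of 620 pairs and for the short in 125, with medians of 0.0525 and 0.033. Where both were coding, the short version was larger in 342 of 611 and the long in 230, with medians of 0.048 and 0.04. This was counted over all pairs, most of which did not pass (551 of the 611 coding pairs), and after the values were seen. The inclusion level and the number of reads of each version were not used, and their part in the pattern was not tested. A version passed in 60 of the pairs with both coding (9.82%) and in 27 with the long alone coding (7.5%). It did so in 41 with the short alone coding (6.61%) and in 88 with neither (9.83%). Over all 2798 pairs the share was 8.72%, and the classes were not tested against each other.

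**Figure D5:**
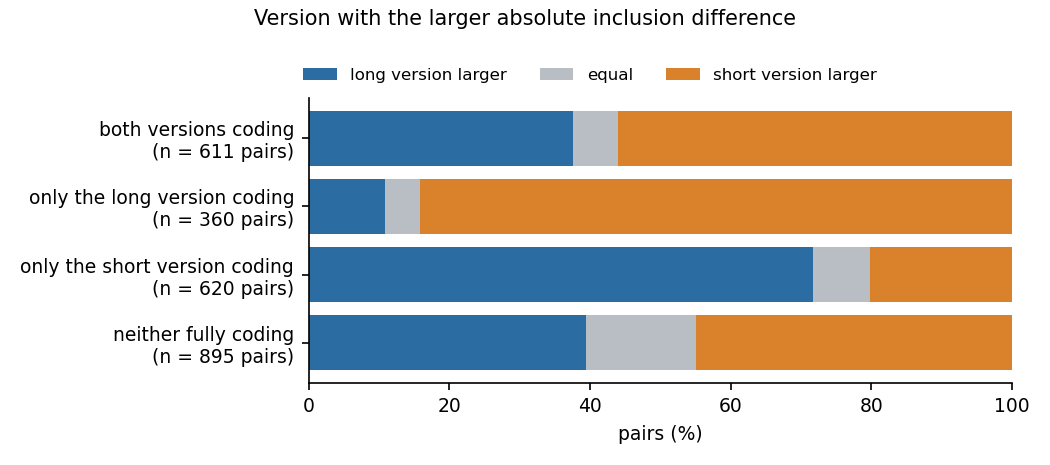
Share of pairs (horizontal axis, in percent) in which the long version (blue) or the short version (orange) had the larger absolute inclusion difference, by which versions are fully coding in GENCODE 29. The short version is larger in 303 of 360 pairs where the long alone is coding, and the long in 445 of 620 where the short alone is coding.

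Of 16 listed genes known to respond to RBFOX proteins, 15 had events and 6 had exons with alternative ends, beside 1844 of all 9172 genes. These genes held 13 such exons, of which 1 passed, with the first set higher, which is near the 7.16% of all exons with alternative ends and the 5.73% of all exons. That exon is the 795-nt version in ENAH (chr1:225704898-225705692, minus strand), a regulator of actin filaments, with 0.15 and an FDR listed as 0 in the authors' deposited table. Its 111-nt version shares the donor and starts 684 nt further in, and the authors' deposited table gave 0.09 (FDR again 0), which fell short on size. The other 7 of the 8 pairs of this list had no passing version, where 8.72% of all 2798 pairs had at least 1. The median absolute differences over the list were 0.0435 for long and 0.027 for short versions, against 0.05 and 0.052 over all pairs.

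Of 63 listed splicing regulators, 55 had events and 24 had exons with alternative ends, beside 1844 of all 9172 genes with events. Of these 65 exons, 7 passed, 4 with the first set higher and 3 with the second, beside 7.16% of all exons with alternative ends and 5.73% of all exons. Among the 36 pairs with the same flanks, 4 had a passing version, beside 8.72% of all 2798 pairs. They were those of U2AF1L4 and SRSF10 given above and those of PTBP1 and TIAL1. PTBP1 is a repressor of many exons, and its isoforms differ by the exon printed above. In the authors' deposited table the 78-nt PTBP1 version had -0.106 (FDR 0.004) and the 57-nt version -0.069 (FDR 0.295). In TIAL1 (chr10:121339983-121340358, minus strand), an RNA-binding protein that promotes recognition of weak donors, both passed, with -0.18 (FDR 3.94e-09) at 376 nt and -0.1 (FDR 2.41e-05), the minimum size, at 68 nt in the authors' deposited table. Neither TIAL1 version matched a coding transcript. Over the 36 pairs the median absolute difference was 0.0145 for long and 0.01 for short versions.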

How the data were processed

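The authors deposited 1 table of skipped-exon events in the rMATS junction-count format, per the file headers. The submitters' processing notes name STAR 2.7.3a and hg19; other steps are not given in the sources used here. The deposited p-value and FDR per event, the inclusion difference and the effective lengths (94 nt for skipping, 97 to 188 nt for inclusion) were used as they stand; no refit was made. Another 6 columns hold values of single libraries under set numbers that match no label, and were not used.

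Exons were unique by chromosome, strand, start and end. A pair with several matched events was represented by that with the lowest p-value, which favours calls. GENCODE 29 exons were matched by gene, length and both flanking intron lengths, without coordinates (4523 of 4913 exon and gene combinations). Pairs were named by a rule: up to 6 with both versions passing in opposite directions (0 were found), the 6 with both passing in the same direction at the lowest p-values, the 4 widest gaps per end type with 1 version passing and an FDR of at least 0.5 in the other, up to 4 passing pairs 3 nt apart at the acceptor and 4 nt apart at the donor, and all passing pairs of the lists. Some items that the rule names are not reported here. Other named genes were chosen with their values in view. The exons and lists were chosen with earlier results of these data known. The pair finder was tested on 1000 made-up pairs. Python 3.11.15, pandas 2.3.3, numpy 2.4.6 and matplotlib 3.10.9 were used.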

Additional observations from a re-analysis of the deposited data

How the results depend on the processing

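Of the counts under alternative settings, 54 stayed within 1.5 times the reported count and 13 did not. Bonferroni correction over the table, stricter by construction, left 103 passing exons, 71 pairs with a pass (51 acceptor, 20 donor), 25 with both versions passing, 24 with the long alone and 22 with the short alone. A minimum difference of 0.2 left 61 pairs with both passing and 51 with the short alone. Groups of exactly 2 exons gave 1783 pairs, 113 acceptor pairs among them with a pass, and 1 pair per gene gave 1807 pairs. Taking each exon by its lowest p-value whatever its flanks gave 3 pairs with both versions passing in opposite directions: IFI27L1 (-0.268 long, 0.315 short), C17orf49 (0.223 and -0.271) and PAM (0.208 and -0.166), in the authors' deposited table. The count of opposite pairs was 0 under the other alternatives run. These were FDR limits of 0.01 and 0.1, Bonferroni, no minimum difference and a minimum of 0.2. Groups of 2 exons, 1 pair per gene and pairs with both exons under 500 nt were the others.

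No paired analysis was possible because no column carries a replicate number of the labels; for that reason a fit with a replicate block was not run, no library was left out either, and how far 1 clone decides a call is not shown. Depth per library was not used, and the deposited p-value was 1 for both versions in 1158 of the 2798 pairs, where no difference was detectable.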

Other observations

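A shared boundary without shared flanks was found for 209 of the 3007 pairs. The INO80E group, of a subunit of the INO80 chromatin remodeler, held 6 exons from 66 to 3446 nt, of which 3 passed, all higher in the first set. Other events of its passing 90-nt and 319-nt exons had 0.027 and 0.166 and did not pass. The JKAMP group, of an endoplasmic reticulum protein, held versions of 74, 92 and 124 nt, listed at 0.162, 0.129 and 0.169 in the authors' deposited table.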
